A study of Homo sapiens with 6 samples.

Results

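De novo purine synthesis was described through the genes of its 10 enzymes, read for HA and H3K4me3 at their transcription start sites (TSSs). The members were PPAT, PAICS, GART, PFAS, ADSL, ATIC, ADSS2 (formerly ADSS), GMPS, IMPDH1 and IMPDH2, taken by name from the annotation, and they are 10 of 20163 protein coding genes. A gene counted as occupied when a peak lay within 1 kb of any of its annotated TSSs. No cut on a measured value chose the members, but earlier results of these data were known, and ADSL is an example locus of the study. The pathway builds the purine ring step by step on phosphoribosyl pyrophosphate (PRPP), with PPAT at the committed step and ATIC closing the ring to give inosine monophosphate (IMP). From IMP, ADSS2 and ADSL lead to AMP, while IMPDH1 or IMPDH2 and then GMPS lead to GMP. The enzymes serve most dividing cells, which need purines for DNA, RNA and energy, and cells can also recover purine bases through salvage enzymes.

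The data came from native chromatin immunoprecipitation and sequencing (nChIP-Seq), in which micrococcal nuclease releases nucleosomes without crosslinking, in U2OS cells, a human osteosarcoma line, harvested 2 days past confluence. The 6 samples fell into 4 groups: 3 HA replicates of the ProMMP2-3xHA line (genotype label Pro-MMP2-3XHA stable), and 1 library each of H3K4me3 from that line, HA from WT cells and H3K4me3 from WT cells. The ProMMP2-3xHA line stably expresses uncleaved MMP-2, a protease that cuts the N-terminal tail of histone H3, tagged with 3xHA at its C terminus, beside the endogenous protein, so an HA peak marks the tagged and not the endogenous MMP-2. No separate list of the WT HA library was used here, and the names of the HA lists show that an HA control was the peak caller's background.

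Fragments at HA summits were recovered from the peak caller's values. The median over all summits was 51 fragments in replicate 1, 44 in replicate 2 and 42 in replicate 3, and the 5th percentile was 34, 27 and 26 fragments. The merged HA list held 7216 peaks. Of 6 genes that mark osteoblasts, RUNX2, SP7, COL1A1 and SPARC carried H3K4me3 in both lines, ALPL and BGLAP did not, and none of 6 markers of liver, blood, neural and muscle cells (ALB, HBB, CD3E, PTPRC, NEUROD1 and MYOD1) carried it.

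The sequences beside the starts are shown first for the promoters that the results turn on, read from GRCh37 and written 5′ to 3′. Capitals mark GGGCGG or its reverse complement (the GC box), the only one of 6 searched motifs found in these stretches. The first line is the gap between the divergent starts of PPAT and PAICS (chr4:57301782-57301906, plus strand), which no HA peak of any list reached. It is followed by 150 bases before the most upstream start of the main promoter of ADSL (chr22:40742315-40742464, plus strand), which had HA in every replicate. Next are the 150 bases before ATIC (chr2:216176529-216176678, plus strand), with no HA peak in any list. The 150 bases before IMPDH1 (chr7:128050041-128050190, minus strand) lie inside its only HA peak, that of replicate 2. The last line is the coding part of exon 1 of IMPDH2 (chr3:49066686-49066783, minus strand), which held the strongest HA summit of every replicate.
PPAT to PAICS gap: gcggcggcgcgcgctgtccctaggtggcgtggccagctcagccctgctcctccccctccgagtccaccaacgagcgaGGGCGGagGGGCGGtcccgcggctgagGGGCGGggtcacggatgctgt
ADSL before the TSS: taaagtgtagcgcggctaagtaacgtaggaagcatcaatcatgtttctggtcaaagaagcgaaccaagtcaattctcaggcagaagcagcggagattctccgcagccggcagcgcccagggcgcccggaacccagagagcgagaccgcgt
ATIC before the TSS: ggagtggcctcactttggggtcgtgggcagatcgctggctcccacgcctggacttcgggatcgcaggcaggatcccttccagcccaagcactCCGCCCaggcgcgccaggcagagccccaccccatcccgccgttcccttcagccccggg
IMPDH1 before the TSS: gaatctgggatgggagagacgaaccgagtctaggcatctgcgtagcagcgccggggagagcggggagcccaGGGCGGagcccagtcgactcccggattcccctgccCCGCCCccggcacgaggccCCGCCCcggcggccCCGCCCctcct
IMPDH2 coding exon 1: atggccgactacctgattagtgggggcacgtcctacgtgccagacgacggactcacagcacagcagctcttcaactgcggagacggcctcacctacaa
Counted from the left end of each line, the upstream HA summits of ADSL lay at base 15 in replicate 1, base 29 in replicate 2 and base 13 in replicate 3. In the IMPDH2 exon the summits lay at bases 42, 43 and 62. The GC content of the 5 stretches was 76% between PPAT and PAICS, 56.7% before ADSL, 70.7% before ATIC, 74.7% before IMPDH1 and 59.2% in the IMPDH2 exon.

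All 10 genes carried H3K4me3, a histone mark of active promoters, within 1 kb of a TSS in both lines, against 63.2% of all coding genes. A merged HA peak lay within 1 kb of a TSS of 7 of the 10: PPAT, PAICS, GART, PFAS, ADSL, ADSS2 and IMPDH2. The background share was 32.4% of all coding genes and 50.6% of the 12737 genes with H3K4me3 in both lines. PPAT and PAICS shared 1 peak, so the 7 genes held 6 distinct peaks. ATIC, GMPS and IMPDH1 had none, as had 49.4% of the genes with H3K4me3 in both lines. With 10 genes and shared promoters these counts are descriptions, and no test of the set was made.

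The replicates separated the genes further. HA peaks of replicate 1 were within 1 kb of a TSS of 6 genes (23.9% of all coding genes). Those of replicate 2 were near 9 genes (32.3%) and those of replicate 3 near 7 genes (32.8%). The 6 genes with a peak in every replicate were PPAT, PAICS, GART, ADSL, ADSS2 and IMPDH2, where the share was 19.2% of all coding genes and 30.1% of those with H3K4me3 in both lines. PFAS had peaks in replicates 2 and 3, and GMPS and IMPDH1 in replicate 2 alone. ATIC had no HA peak in any list, as had 36.8% of the genes with H3K4me3 in both lines. The number in every replicate fell to 3 (GART, ADSL and IMPDH2) when peaks had to pass a q-value of 0.01, since the replicate 1 peak of PPAT and PAICS had a −log10 q-value of 1.33 and the ADSS2 peak one of 1.51 in replicate 1 and 1.67 in replicate 3.

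**Figure D1:**
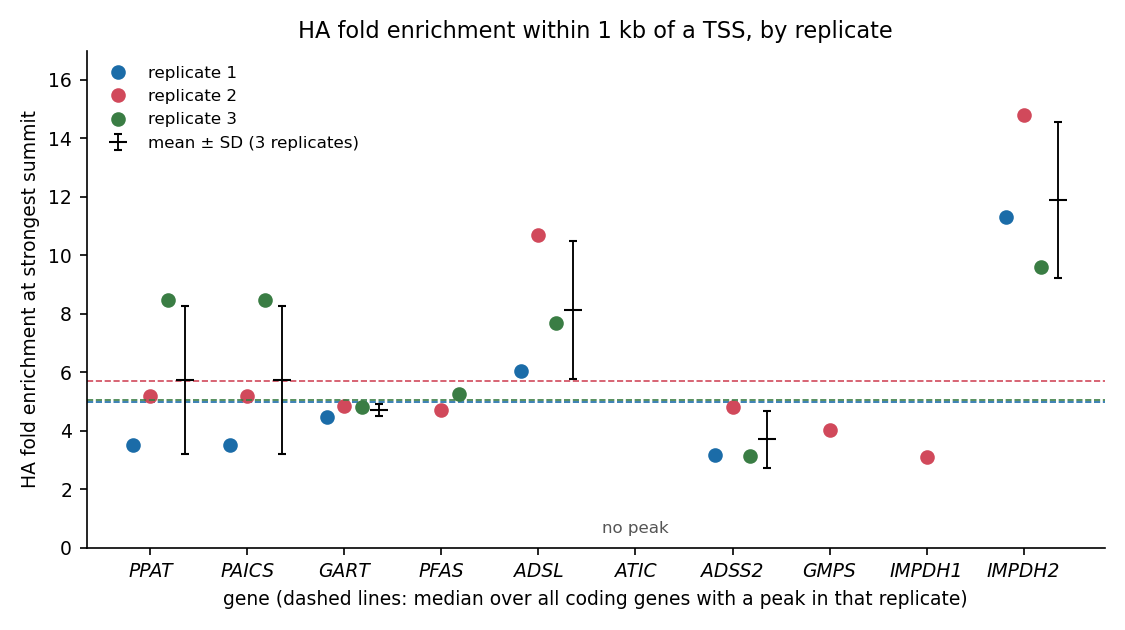
HA fold enrichment at the strongest summit of the peaks within 1 kb of a TSS of each gene (vertical axis, linear, from 0) in the 3 HA replicates, with the mean and SD of genes that had a peak in all 3. Dashed lines are the medians over all coding genes with a peak in the same replicate (5.00, 5.71 and 5.04). IMPDH2 and ADSL lie above the line of their replicate in 3 of 3 replicates, GART and ADSS2 lie below it in 3 of 3, and ATIC has no point.

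The fold enrichment of a summit is its scaled fragment pileup over the local control background, with a small constant added to both. The scaling brings the HA library down to the depth of the control. The fragments given in the text are HA counts before this scaling, while the backgrounds are on the scale of the control. Dividing the fragments by the background therefore does not give the fold enrichment. Each gene was given the highest fold enrichment among its peaks. Among genes with a peak in every replicate, IMPDH2 and ADSL had the highest mean fold enrichment of the pathway and ADSS2 the lowest, although PPAT and PAICS were above ADSL in replicate 3. To compare replicates, values were also expressed as log2 of the ratio to the median gene of the same replicate. The 6 genes with a peak in every replicate had a median of 0.03 on this scale, and the 3867 coding genes with a peak in every replicate had a median of 0.13. A two-sided exact permutation of signs over 3 replicates cannot give a p below 0.25, so no single gene could pass a threshold of 0.05 by it.

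The first steps of the pathway are catalysed by PPAT, the amidotransferase that commits PRPP to purine synthesis, by the trifunctional enzyme encoded by GART, by PFAS and by the bifunctional enzyme encoded by PAICS. PPAT (chr4:57259528-57301781, minus strand, ENSG00000128059) and PAICS (chr4:57301907-57330744, plus strand, ENSG00000128050) start back to back. Their closest annotated starts are 126 bp apart and their canonical starts 645 bp apart. The merged HA peak, chr4:57301942-57302287 (346 bp), lay on the PAICS side of the gap, upstream of every PPAT start and over the first part of the annotated PAICS gene.

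The shared peak had fold enrichments of 3.51 in replicate 1, 5.18 in replicate 2 and 8.48 in replicate 3 (mean 5.73 ± 2.53, SD, n = 3). The strongest summits rested on 38, 51 and 85 fragments over a control background of 2.32, 2.70 and 2.46. Replicate 3 was the highest and replicate 1 the lowest, and the value stood at percentiles 6.57, 39.5 and 92.6 of the genes with a peak in the same replicate. The mean log2 ratio to the median gene was 0.03 ± 0.65 (SD, n = 3; two-sided exact permutation p = 1.0), and it was -0.32 without replicate 3. These were the only values among the 6 genes that changed sign on leaving out a replicate.

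The strongest summits were at nearly the same place in each replicate, 296, 313 and 290 bp upstream of the PPAT start. The same summits were 128, 111 and 134 bp upstream of the PAICS start at chr4:57302205 and 349, 332 and 355 bp upstream of its canonical start at chr4:57302426. A further summit of replicate 2 (4.30) lay 19 bp downstream of that canonical start. The peak lay inside the annotated PAICS gene and within 1 kb of the starts of both genes, so the values of PPAT and PAICS are 1 measurement.

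GART (chr21:34876238-34915797, minus strand, ENSG00000159131) also has a divergent coding partner, SON, which encodes a splicing cofactor of nuclear speckles. The closest starts of GART and SON that point apart were 146 bp apart and the canonical starts 921 bp. GART had fold enrichments of 4.49, 4.85 and 4.81 (4.72 ± 0.196, SD, n = 3), the smallest SD of the 6 genes with a peak in every replicate. The first 2 values came from summits on the SON side and the third from a summit by the GART start. The SD, the ratio and the p below therefore do not measure how well the replicates agree at 1 peak. All 3 values lay below the median gene of their replicate, with a mean log2 ratio of -0.15 ± 0.08 (SD, n = 3; two-sided exact permutation p = 0.25).

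The merged peak at GART, chr21:34914288-34915573 (1286 bp), spanned both canonical starts, but the replicates did not place their summits alike. Replicate 1 had 1 peak, of 216 bp, with its summit 1066 bp upstream of the canonical GART start, on the SON side. Replicate 3 had 1 peak, of 181 bp, with its summit 124 bp downstream of the canonical GART start. Replicate 2 had a single interval of 1315 bp with summits at both places, 1121 bp upstream (4.85) and 55 bp downstream (4.62), and 2 weaker summits between them. The peaks of replicates 1 and 3 therefore did not overlap, although both counted for GART, and with only the 5′ end of the gene as TSS GART had no peak in every replicate.

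PFAS (chr17:8150936-8173809, plus strand, ENSG00000178921) had a merged peak of 243 bp across its canonical start (chr17:8152528-8152770). The fold enrichments were 4.73 in replicate 2 and 5.26 in replicate 3. The nearest HA peak of replicate 1 was 20443 bp away. The summits lay 72 bp downstream of the canonical start in replicate 2 and 24 bp upstream of it in replicate 3, where 35 fragments were recovered over a background of 1.41. CTC1, a subunit of the CST telomere complex, starts in the opposite direction 1233 bp from the canonical PFAS start, and the H3K4me3 regions of both lines covered both starts.

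ADSL (chr22:40742465-40786467, plus strand, ENSG00000239900) encodes adenylosuccinate lyase, which acts in ring synthesis and again on the way to AMP. It is also an example locus of the study. Its merged peak was chr22:40741929-40742749 (821 bp). The fold enrichments were 6.04, 10.7 and 7.68, a mean of 8.13 ± 2.35 (SD, n = 3), all above the median gene of the replicate. The mean log2 ratio to that median was 0.59 ± 0.32 (SD, n = 3; two-sided exact permutation p = 0.25), and ADSL ranked 586 of 3867 genes.

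The HA profile of ADSL had a summit on either side of the canonical start in every replicate. The downstream summits were 115, 138 and 123 bp from it, with fold enrichments of 6.04, 10.7 and 7.22 and 61, 87 and 62 fragments over a background of 2 in each replicate. The upstream summits, inside the sequence printed above, were 175, 161 and 177 bp from it, with fold enrichments of 5.96, 7.98 and 7.68. The downstream summit was the higher one in replicates 1 and 2 and the upstream one in replicate 3. Replicates 2 and 3 had another, weaker summit 611 and 576 bp upstream (3.66 and 3.98).

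**Figure D2:**
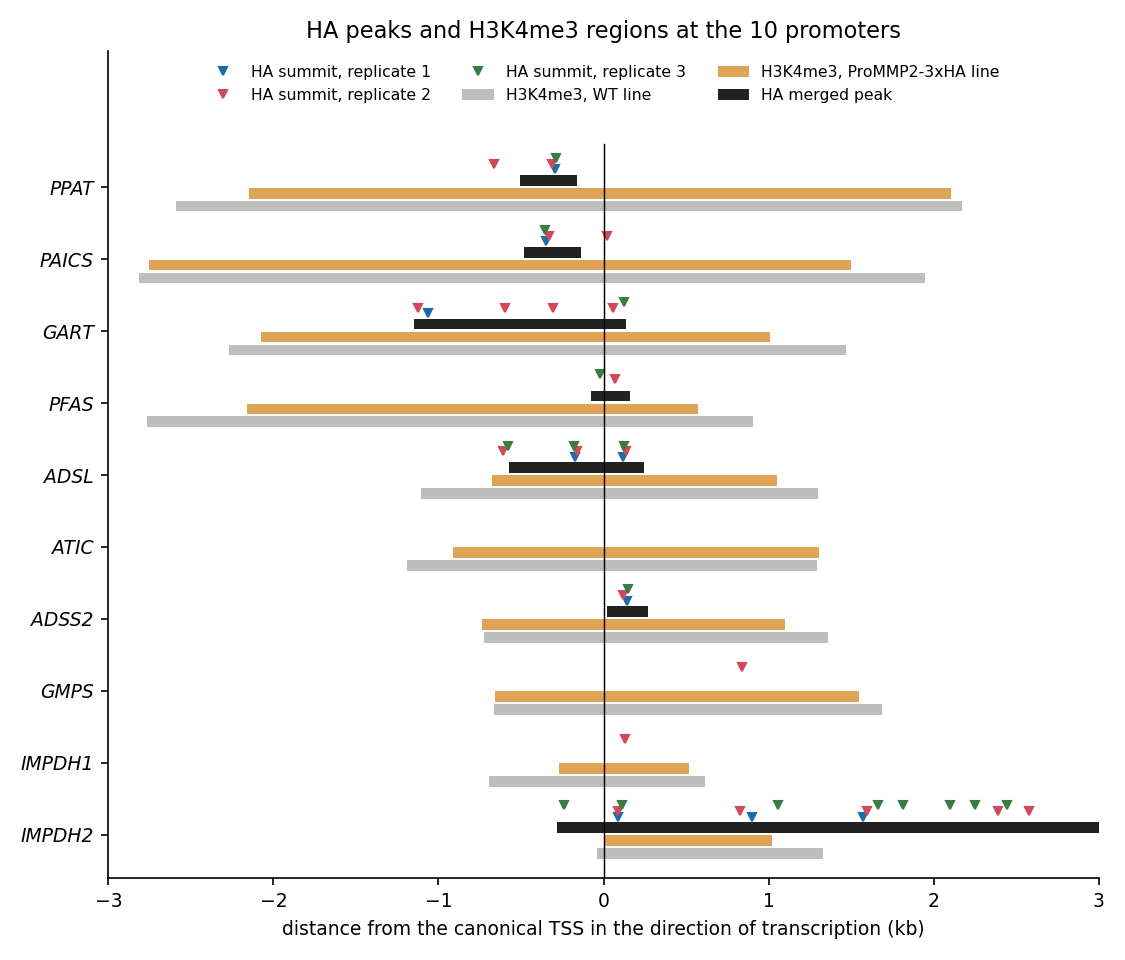
HA summits of each replicate (triangles), merged HA peaks (black) and H3K4me3 regions of the ProMMP2-3xHA line (orange) and the WT line (grey) around the canonical TSS of each gene, on a linear axis in kb with the direction of transcription to the right and cropped at 3 kb. The HA summits of ADSL fall on both sides of the start, those of ADSS2 115 to 148 bp downstream of it, and ATIC shows H3K4me3 with no HA.

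ATIC (chr2:216176679-216214496, plus strand, ENSG00000138363), whose product carries out the last steps to IMP, carried an H3K4me3 region of 2220 bp in the ProMMP2-3xHA line and 2484 bp in the WT line. The nearest HA peak was 10009 bp from an ATIC start in the merged list, and 86820, 9914 and 86739 bp away in replicates 1, 2 and 3. The lists hold only called peaks, so the HA signal at ATIC below the calling threshold is not known. Summits of called peaks near coding starts held 34, 27 and 27 fragments at their 5th percentile.

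ADSS2 (chr1:244571796-244615211, minus strand, ENSG00000035687) encodes adenylosuccinate synthase, the first enzyme from IMP to AMP. Its fold enrichments were 3.17, 4.83 and 3.13, a mean of 3.71 ± 0.969 (SD, n = 3), at percentiles 2.01, 31.4 and 2.46. The mean log2 ratio to the median gene was -0.53 ± 0.25 (SD, n = 3; two-sided exact permutation p = 0.25), and ADSS2 ranked 3788 of 3867. The summits held 53, 65 and 44 fragments, above the median of all summits in each replicate, over a control background of 4 in all 3. The median background over all summits was 2, 2.02 and 2, so that the low ratio at ADSS2 came with more HA fragments and more background than at the median summit. The summits lay 141, 115 and 148 bp downstream of the canonical start, inside a merged peak of 250 bp (chr1:244614939-244615188) that began 23 bp after the start.

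The GMP branch held the most enriched of the 10 genes and 2 genes with HA in a single replicate. IMPDH1 and IMPDH2 encode the isoenzymes that oxidise IMP, the step that limits GMP synthesis, and GMPS aminates the product. IMPDH2 (chr3:49061758-49066880, minus strand, ENSG00000178035) had fold enrichments of 11.3, 14.8 and 9.61, a mean of 11.9 ± 2.66 (SD, n = 3). These lay at percentiles 98.4, 98.8 and 96.2, and IMPDH2 ranked 102 of 3867 genes. The mean log2 ratio to the median gene was 1.16 ± 0.22 (SD, n = 3; two-sided exact permutation p = 0.25). Of the 3867 genes, 1524 lay above the median gene in every replicate and 610 below it in every replicate, and the smallest adjusted p over all of them was 0.453 (Benjamini-Hochberg over exact permutation tests), and no gene passed.

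The strongest IMPDH2 summits fell 89, 90 and 109 bp downstream of the canonical start, in the coding exon printed above, with 124, 144 and 107 fragments over a background of 2.17, 2.53 and 2.82. A second group of summits lay farther into the gene in every replicate, at 1571 bp (6.24), 1599 bp (7.38) and 1817 bp (5.92) from the start. IMPDH2 has 28 annotated starts, against a median of 5 per coding gene, and these internal peaks counted through them. A long noncoding RNA, ENSG00000272434, starts on the other strand 82 bp downstream of the canonical IMPDH2 start, so that its exon runs over the first IMPDH2 exon, and the closest pair of their starts that point away from each other lay 121 bp apart. The genes nearest to IMPDH2 in the log2 fold enrichments of the 3 replicates, among 3866 compared, were SFXN5 (distance 0.11), ACTG1 (0.12) and ATP5F1E (0.12).

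The merged HA peak at IMPDH2, chr3:49053995-49067113, was 13119 bp wide, the 8th widest of 7216 and 1 of 17 over 10 kb. It held all of IMPDH2, NDUFAF3, MIR191 and MIR425 and the 5′ end of DALRD3. The merged list joins neighbouring calls, since no regions in it lie closer than 4032 bp, and the replicates did not cover the whole of this region. Replicate 1 covered 24.5% of it with 7 intervals, replicate 2 68.4% with 3 and replicate 3 36.3% with 7. In each replicate, the interval at the IMPDH2 start had the highest fold enrichment of the region. An interval that overlapped both NDUFAF3 and DALRD3 and began 7.07 to 7.85 kb downstream had the next (8.45, 13.0 and 8.82).

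**Figure D3:**
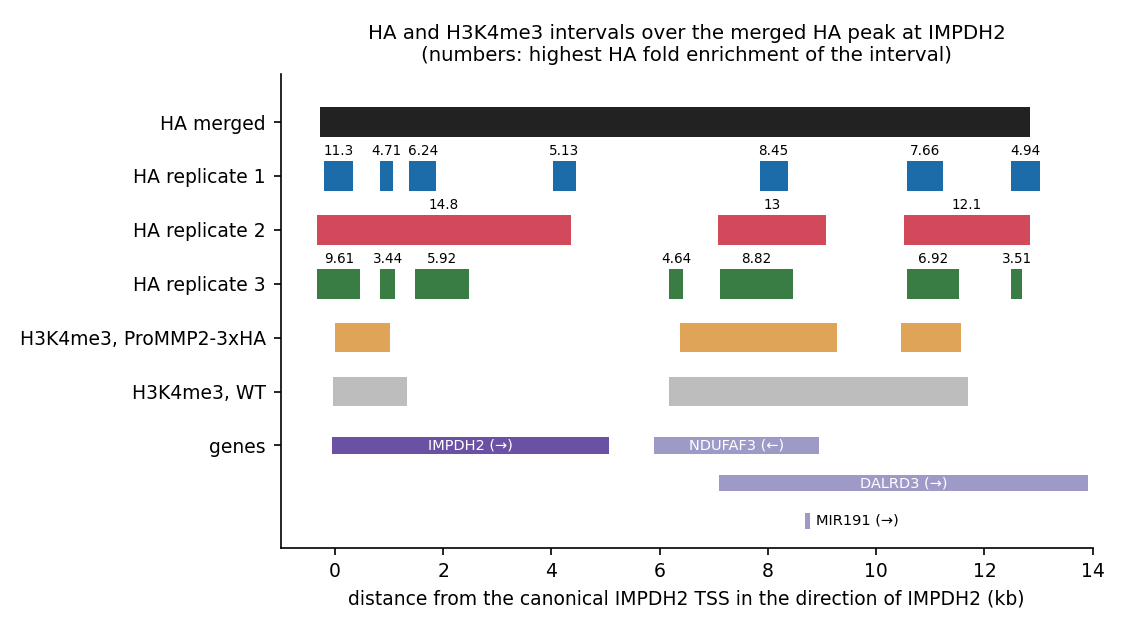
HA intervals of the merged list and of each replicate, H3K4me3 regions of both lines and annotated genes over the merged HA peak at IMPDH2, in kb from the canonical IMPDH2 TSS (linear axis, IMPDH2 transcribed to the right, arrows for the direction of each gene). The number over an HA interval is its highest fold enrichment, and the intervals at the start reach 11.3, 14.8 and 9.61 while no replicate has a peak between the end of IMPDH2 and the start of the NDUFAF3 bar.

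IMPDH1 (chr7:128032331-128050040, minus strand, ENSG00000106348) had 1 HA peak, in replicate 2, of 482 bp with a fold enrichment of 3.12, at percentile 2.72 of that replicate. Its summit lay 133 bp downstream of the canonical start with 41 fragments over a background of 4. IMPDH1 carried H3K4me3 at 2 promoters in both lines, the canonical one and an internal one just over 4 kb downstream, and only the canonical one had the HA peak. The nearest peaks of the merged list and of replicate 3 were 45601 bp away. GMPS (chr3:155588439-155661809, plus strand, ENSG00000163655) likewise had 1 HA peak, in replicate 2, of 283 bp with a fold enrichment of 4.03. Its summit lay 838 bp downstream of the start with 26 fragments over a background of 1.55, and the nearest merged peak was 15665 bp away. Replicate 2 held the most peaks of the 3 lists (9193, against 6401 and 8933) and the widest (a median of 544 bp, against 253 and 308).

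The position of the strongest summit relative to its nearest annotated TSS was counted over the genes with a summit within 1 kb. It was downstream in 3 of 6 genes of replicate 1, in 7 of 9 of replicate 2 and in 3 of 7 of replicate 3 (mean 56.9% ± 18.4, SD, n = 3). The genes counted differed between replicates, which enters the SD. The same share over all coding genes is not given here, so the counts describe the members alone. PPAT and PAICS share their summit, and with it counted once the numbers were 3 of 5, 7 of 8 and 3 of 6 (mean 65.8% ± 19.4, SD, n = 3). ADSS2 and IMPDH2 had it downstream in every replicate, and PPAT and PAICS upstream in every replicate. With only the 5′ end of the gene as TSS the mean rose to 76.9%, so the side depended on which starts were counted.

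H3K4me3 was compared between the lines by the width of the region, since these lists give no height, and each line has 1 library, so the differences have no replicate check. No neighbouring regions lay closer than 1001 bp in the ProMMP2-3xHA line or 1048 bp in the WT line. A width may therefore span joined calls. The widest region near a TSS was wider in the WT line at all 10 genes, as it was at 93.0% of the coding genes with the mark in both lines. The ratio of WT to ProMMP2-3xHA width ran from 1.07 at GMPS to 1.62 at IMPDH1, with a median of 1.17 over the 10 genes and 1.28 (quartiles 1.13 and 1.53) over all genes. Only 4 of the 10, PFAS, ADSL, IMPDH1 and IMPDH2, were above the median of all genes. The median width of all regions in the lists was 1480 bp in the WT line and 893 bp in the ProMMP2-3xHA line, and what part the depth of each library plays was not tested.

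The widest H3K4me3 region was the one that PPAT and PAICS share, 4254 bp in the ProMMP2-3xHA line and 4761 bp in the WT line. GART followed with 3085 and 3737 bp and PFAS with 2733 and 3670 bp. ADSL had 1723 and 2410 bp, ADSS2 1841 and 2085 bp, GMPS 2207 and 2355 bp and IMPDH2 1019 and 1371 bp. At IMPDH1 the widest region was at the internal promoter in the ProMMP2-3xHA line (811 bp) and at the canonical promoter in the WT line (1313 bp), and at the canonical promoter alone the widths were 788 and 1313 bp, a ratio of 1.67. The narrowest regions were thus those of IMPDH1 and IMPDH2, 1 with HA in a single replicate and the other with the highest HA fold enrichment of the pathway. The median over the 10 genes was 2214 bp in the ProMMP2-3xHA line, against 1451 bp over all genes with the mark in both lines. At IMPDH2 the region of the ProMMP2-3xHA line began 1 bp after the canonical start and ran 1019 bp into the gene, while the HA interval at the start reached upstream of it in every replicate.

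**Figure D4:**
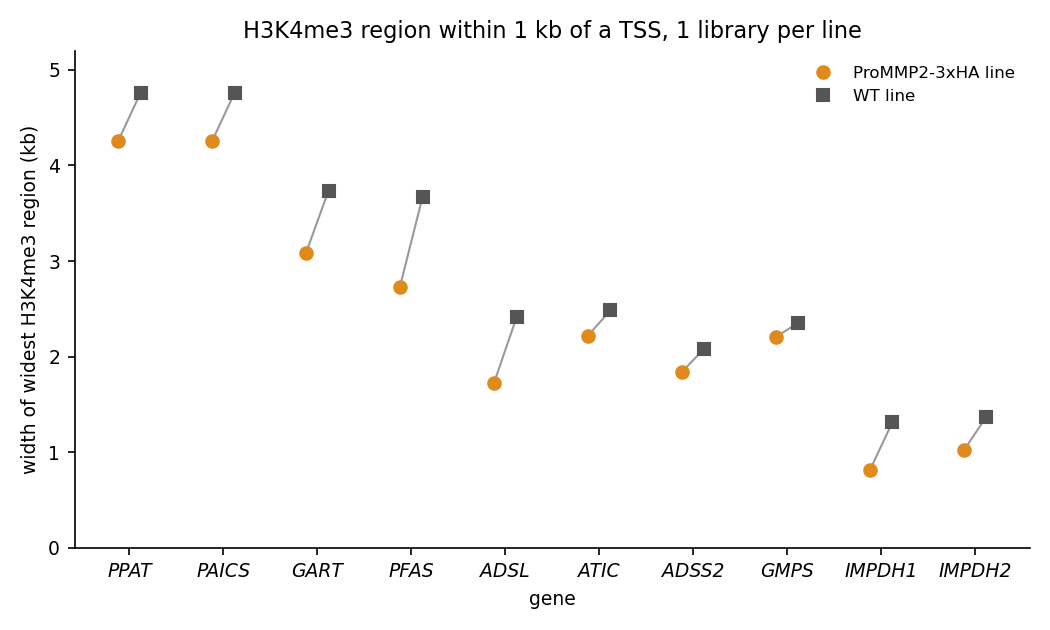
Width of the widest H3K4me3 region within 1 kb of a TSS of each gene in the ProMMP2-3xHA line (circles) and the WT line (squares), 1 library each, on a linear axis in kb from 0. The square lies above the circle at all 10 genes, from 4254 and 4761 bp at PPAT and PAICS, which share the region, to 811 and 1313 bp at IMPDH1.

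Divergent coding partners within 1 kb were present at 3 of the 10 genes (30%), which are PPAT and PAICS with each other and GART with SON. The share was 16% of all coding genes and 23.3% of those with H3K4me3 in both lines. Among the latter, a merged HA peak lay at 60.3% of the genes with such a partner and at 47.6% of the others. The 3 members with a partner all had a merged HA peak, as had 4 of the 7 without one.

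The promoters were also read for 6 motifs, on both strands, from 250 bases before to 50 bases after the canonical start. The GC box GGGCGG was found in all 10, against 61.5% of 19862 coding promoters. CACGTG, the E-box bound by MYC and related factors, was in PPAT and ATIC (8.77% of all promoters), CCAAT, bound by NF-Y, in GART and IMPDH2 (36.0%), and CCGGAAGT, an ETS motif, in GART (6.17%). IMPDH2 alone had TGACGTCA, the CRE (2.68%), and GCATGCGC, an NRF1 motif (4.27%). A match is a run of letters and not a bound site. ATIC, without HA, and PPAT, with it, thus shared the E-box letters. The GC content of these windows ranged from 57% at PFAS to 79.3% at GMPS, with a median of 69.7% over the members and 63.7% over all promoters.

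The rest of the pathway was read from a list of 32 further purine genes. A merged HA peak lay at 13 of them (40.6%), beside 32.4% of all coding genes and 50.6% of those with H3K4me3 in both lines. HA was present in every replicate at 8 of them (25%), beside 19.2% and 30.1%, and 27 of the 32 carried H3K4me3 in both lines. Among the genes that make PRPP, the regulatory subunits PRPSAP1 and PRPSAP2 had a merged peak and the synthetases PRPS1 and PRPS2 did not. Among the genes listed under one-carbon supply, MTHFD1, MTHFD2 and ALDH1L2 had a merged peak and a peak in every replicate. MTHFD1L, SHMT1, SHMT2 and ALDH1L1 had no merged peak, although MTHFD1L had peaks in replicates 2 and 3 (5.71 and 4.31). The fold enrichments of MTHFD2 were 4.39, 6.34 and 7.60 (6.11 ± 1.62, SD, n = 3).

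Of 7 salvage genes, APRT, ADK, DCK and PNP had a merged peak, and none of the 7 had a peak in every replicate. Over all genes with H3K4me3 in both lines these shares were 50.6% and 30.1%. APRT, ADK and PNP lacked a peak in replicate 1 alone, and DCK in replicate 3 alone. HPRT1, the main enzyme of hypoxanthine and guanine salvage, MTAP and ADA had no merged peak, although MTAP had a peak in replicate 3 alone (3.73). All 7 salvage genes carried H3K4me3 in both lines. Among the genes that interconvert or phosphorylate purine nucleotides, GMPR2 and GUK1 had a merged peak. ADSS1, GMPR, AMPD1, AMPD2, AMPD3, AK1, NME1 and NME2 did not, although AMPD2, AK1 and NME2 had a peak in replicate 2 alone (3.64, 3.42 and 3.41). ADSS1, the muscle form of the enzyme that ADSS2 encodes, had an HA peak in replicate 2 alone (4.59) and H3K4me3 in the WT line alone. XDH and GDA, which degrade purines, had neither mark. Of 5 pyrimidine genes read for comparison, CAD and CTPS1 had a merged peak, and DHODH, UMPS and CTPS2 did not. UMPS had a peak in replicate 1 alone (2.89). CAD, which starts pyrimidine synthesis, had fold enrichments of 5.01, 7.87 and 6.78 (6.55 ± 1.45, SD, n = 3).

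**Figure D5:**
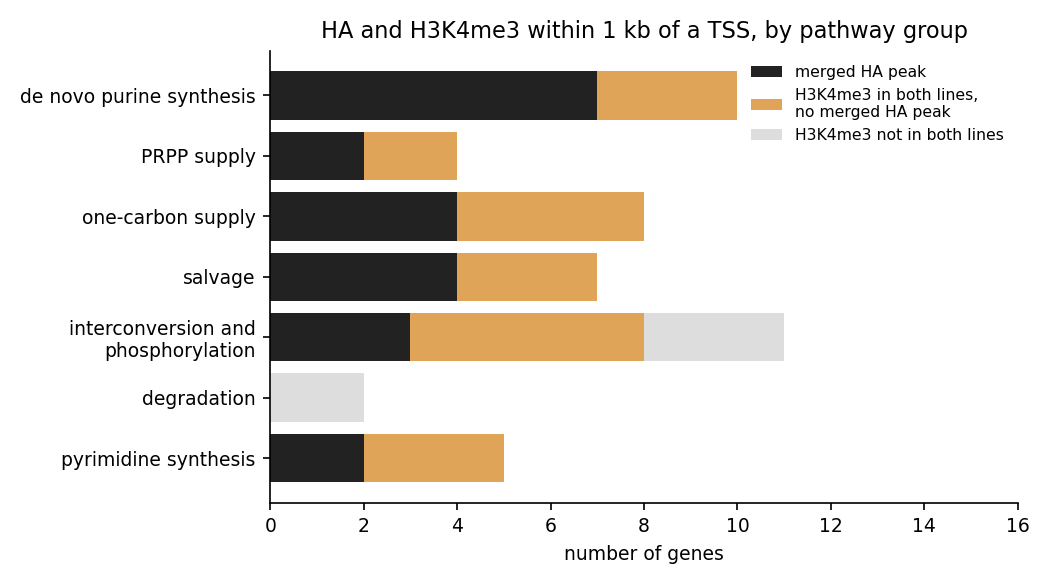
Number of genes (linear axis) in each pathway group with a merged HA peak within 1 kb of a TSS (black), with H3K4me3 in both lines but no merged HA peak (orange), or with H3K4me3 not in both lines (light grey). The de novo group has 7 of 10 genes in black, salvage 4 of 7, interconversion and phosphorylation 3 of 11 and degradation none of 2. A merged HA peak lay at 32.4% of all coding genes and at 50.6% of those with H3K4me3 in both lines.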

How the data were processed

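HA and H3K4me3 nChIP-Seq peak lists of U2OS cells were used. Per the labels and the study's methods, the authors trimmed reads (Trim Galore 0.6.0), aligned pairs to hg19 (GRCh37) with Bowtie2 2.3.5.1, kept a mapping quality of 30 (SAMtools 1.9), removed duplicates (Picard) and called peaks with MACS2 3.0.0a6 at a q-value of 0.05 and a minimum length of 147 bp. Each line of the deposited HA replicate lists gives an interval, a summit, a score, the fold enrichment as a ratio, and −log10 of the p-value and the q-value. The deposited merged HA list, called by the authors on pooled replicates, and both H3K4me3 lists combine narrow and broad calls as intervals with no height. Calls on pooled replicates are no replicate of the single lists.

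Here the TSS was the 5′ end of every transcript in GENCODE 44 lifted to GRCh37, and a peak counted within 1 kb of it, a search checked against bedtools 2.31.1. The fold enrichment of a gene was the highest of its peaks. Fragments were recovered from fold enrichment and p-value together, as both come from 1 pileup, for 86.0% (replicate 1), 91.9% (replicate 2) and 92.9% (replicate 3) of summits (tested on simulated data), and 3 of the 45 summits at the members were not resolved. For H3K4me3 the depth is unknown. The 3 HA replicates were independent experiments in the study's methods. Single genes were tested by an exact two-sided sign permutation with Benjamini-Hochberg adjustment over 3867 genes. No list of the WT HA sample was used on its own. For peak calling the study's methods name the matching input or control immunoprecipitation as background. They name a mock HA immunoprecipitation of U2OS cells for the broad regions, and the paper treats HA experiments in WT cells as a negative control. Whether the HA control behind the fold enrichments is the WT HA sample is not stated outright in the sources used here. Python 3.11.15, numpy 2.4.6, pandas 2.3.3, scipy 1.17.1 and matplotlib 3.10.9 were used.

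The members, the pathway list, the motifs and the alternatives were chosen with earlier results of these data known. Named are the 10 members, every coding or long noncoding gene head to head within 1 kb of one, listed pathway genes with no merged peak, listed genes with the highest mean fold enrichment (of 3 by the rule, 1 is not reported here), and the 3 genes nearest to IMPDH2. CTC1, the listed genes with a merged peak and the genes inside the merged peak at IMPDH2 are named beside them and were chosen after their values were seen. Alternatives were other TSS sets, windows of 500 bp and 2 kb, q-values of 0.01 and 0.001, and leaving out each replicate. Others were chosen after seeing the data. These were peaks of at least 281 bp (the narrowest of replicate 2), a width ratio without IMPDH1, and summit positions with PPAT and PAICS counted once.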

Additional observations from a re-analysis of the deposited data

How the results depend on the processing

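Of 61 alternatives for the 8 values that summarise the members, 55 stayed within the error or within 1.5 times the count. The number of members with HA in every replicate fell from 6 to 3 at a q-value of 0.01 and to 3 at 0.001, without PPAT, PAICS and ADSS2, and to 2, ADSL and IMPDH2, with peaks of at least 281 bp. The share over all coding genes at these stricter cuts is not given here. The number of members ranged from 6 to 7 when a replicate was left out, with PFAS added without replicate 1. The median log2 fold enrichment of the members went from 0.03 to 0.55 at a q-value of 0.01, to 0.48 at 0.001 and to 0.77 with peaks of at least 281 bp, all with fewer genes entering, and ranged from -0.26 to 0.31 on leaving out a replicate. The mean share of strongest summits downstream of the nearest TSS went from 56.9% to 76.5% with TSSs of protein coding transcripts only and to 76.9% with the 5′ end of the gene only, and ranged from 46.4% to 63.9% when a replicate was left out. Of 67 alternatives for single genes, 65 kept their direction, and PPAT and PAICS fell from 0.03 to -0.32 without replicate 3. PFAS had no merged peak when only the 5′ end of the gene counted or when a merged peak had to overlap a peak of every replicate. No paired analysis was possible because the groups share fewer than 2 replicate numbers. The lists hold called peaks only, so a gene without one may carry signal below the threshold.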
